A study of Mus musculus with 30 samples.

Results

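A set of 8 genes of the transforming growth factor beta (TGF-β) pathway were followed in kidney and gastrocnemius muscle, namely the ligands *Tgfb1*, *Tgfb2* and *Tgfb3*, the receptors *Tgfbr1* and *Tgfbr2*, the intracellular mediators *Smad3* and *Smad7*, and the matrix target *Fn1*. They were taken by gene symbol, and all 8 were found among the 54838 genes of the kidney table and the 55487 genes of the gastrocnemius table. All 8 also passed the filter on low counts in both tissues, which left 17120 and 15419 genes to test. In gastrocnemius, WD feeding lowered *Smad3* and raised *Tgfb2*, whereas in kidney it raised *Fn1*. The muscle calls, but not that of *Fn1*, were lost with a covariate for adipocyte marker genes, which in muscle themselves differed between the diets. No member passed the test between WD + CHP and WD in either tissue.

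RNA-seq libraries came from wild-type (WT) male C57BL/6J mice of a diet-induced fatty liver study, 1 mouse per library, with 5 libraries per group and tissue and 30 in all. The CD group received chow diet and water, the WD group a western diet rich in fat and sucrose and water, and the WD + CHP group the western diet and cyclo(His-Pro) (CHP), a dipeptide of histidine and proline closed to a ring. Every mouse lived at thermoneutrality (30 to 32 °C) from 6 weeks of age, entered the diet and treatment at Week 7 and was euthanised at Week 24 after fasting for 3 h. Dosing was oral, with 20 mg/kg CHP or water 3 times a week. The comparisons ask whether the diet altered these genes outside the liver, and whether CHP altered them under the same diet. Nothing in the sources used here pairs the kidney of a mouse with its muscle, but the animal list of the study holds fewer mice of this age than there are libraries, so some mice probably gave both tissues.

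TGF-β ligands are secreted in a latent form, held in the matrix, and bind the type II receptor encoded by *Tgfbr2*, which recruits and phosphorylates the type I receptor encoded by *Tgfbr1*. The active type I receptor phosphorylates SMAD3, which moves with SMAD4 to the nucleus and drives matrix genes, among them *Fn1*, the gene of fibronectin. *Smad7* is itself induced by the pathway and encodes an inhibitory SMAD that blocks the type I receptor. In kidney the pathway is best known for interstitial and glomerular fibrosis, and in skeletal muscle for fibrosis and for restraint of muscle growth and regeneration.

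Each kidney library held 37189192 to 38211422 counts, and each gastrocnemius library 50319024 to 53282969. Of 15 proximal tubule markers, 15 passed the filter in kidney and 1 in gastrocnemius, and of 12 fast muscle fibre markers, 5 and 12 passed, so each table carried the defining genes of its named tissue, although the sample labels give frozen liver as the extracted material. Summed hepatocyte markers were below 80 CPM in every gastrocnemius library, with the highest values at 71.01 CPM in CD replicate 1 and 76.57 CPM in WD replicate 3. In kidney they reached 1343 CPM in WD replicate 5, against 475.9 to 749 CPM in the other libraries.

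Promoter windows of the ligand pair *Tgfb1* and *Tgfb2* and of *Smad3* are shown first, because *Tgfb2* and *Smad3* are the genes that changed in muscle and *Tgfb1* is a ligand of the same family that did not pass the test there. They are RefSeq windows on GRCm38.p6, 250 bases before to 50 bases after the start of the gene, printed on the strand of the gene. Capitals mark TATAAA (read on the strand of the gene only), CACGTG (the E-box), TGACG (the CRE half-site) and GGGCGG (the GC box), the last 3 sought on both strands. The windows lie at chr7:25686752-25687051 on the plus strand (*Tgfb1*), chr1:186705940-186706239 on the minus strand (*Tgfb2*) and chr9:63757945-63758244 on the minus strand (*Smad3*), and the sequences read as follows.
Tgfb1: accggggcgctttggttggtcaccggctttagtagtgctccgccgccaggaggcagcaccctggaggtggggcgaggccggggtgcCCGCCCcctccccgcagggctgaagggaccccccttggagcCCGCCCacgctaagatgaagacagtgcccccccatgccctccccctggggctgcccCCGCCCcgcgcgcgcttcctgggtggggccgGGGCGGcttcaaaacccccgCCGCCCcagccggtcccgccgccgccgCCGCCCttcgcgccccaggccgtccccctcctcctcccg
Tgfb2: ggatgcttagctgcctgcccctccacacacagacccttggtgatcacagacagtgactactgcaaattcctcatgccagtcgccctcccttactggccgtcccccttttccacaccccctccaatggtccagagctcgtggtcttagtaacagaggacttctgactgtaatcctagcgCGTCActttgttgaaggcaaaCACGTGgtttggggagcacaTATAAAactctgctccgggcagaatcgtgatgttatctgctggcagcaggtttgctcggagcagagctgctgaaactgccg
Smad3: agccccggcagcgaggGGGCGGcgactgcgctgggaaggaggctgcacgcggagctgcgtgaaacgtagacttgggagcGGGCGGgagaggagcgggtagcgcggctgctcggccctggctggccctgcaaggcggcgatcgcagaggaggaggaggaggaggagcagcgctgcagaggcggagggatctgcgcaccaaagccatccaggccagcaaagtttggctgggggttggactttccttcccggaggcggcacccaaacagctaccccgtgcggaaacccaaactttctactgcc
The windows of the ligand genes differ in what they hold. The *Tgfb2* window has 1 TATAAA, which begins 31 bases before the start, 1 E-box and 1 CRE half-site, and no GC box, and 54.3% of its bases are G or C. The *Tgfb1* window has 6 GC boxes, no TATAAA, and 77% G or C, and the *Smad3* window has 2 GC boxes, no TATAAA, and 67.7% G or C. Among 32851 mouse promoter windows of the same length, 8.32% hold TATAAA, 7.15% the E-box, 20.8% the CRE half-site and 35.7% the GC box. The SMAD palindrome GTCTAGAC is in 0.213% of them and in none of the windows found for 5 of the 8 members (the others being *Tgfbr1* and *Tgfbr2*). These matches describe the letters in the windows and were not linked to any change in level.

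The members stood in a different order in the 2 tissues. Levels between genes were compared as RPKM, which divides the TMM-scaled CPM by exon length, over the 15 libraries of a tissue. In kidney *Tgfbr2* was highest at 11.6 ± 0.474 RPKM (SD, n = 15), followed by *Tgfbr1* at 8.76 ± 0.548 and *Smad3* at 8.04 ± 0.477 RPKM, whose ranges overlapped. *Smad7* stood at 5.38 ± 0.814 RPKM, and *Tgfb1* (3.19 ± 0.277 RPKM) and *Fn1* (2.20 ± 0.506 RPKM) overlapped below it. *Tgfb3* and *Tgfb2* were lowest, at 0.439 ± 0.0886 and 0.389 ± 0.0646 RPKM, and could not be separated from each other. In kidney *Tgfb1* was thus the main ligand transcript, and its lowest library (2.53 RPKM) lay above the highest library of *Tgfb3* (0.611 RPKM).

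In gastrocnemius *Smad3* led at 20.01 ± 3.37 RPKM (SD, n = 15), and *Tgfb3* followed at 15.9 ± 1.05 RPKM with an overlapping range. *Fn1* stood at 7.04 ± 1.63 RPKM. *Tgfbr1*, *Tgfb2* and *Tgfbr2* came next, at 4.73 ± 0.334, 3.96 ± 0.330 and 3.83 ± 0.432 RPKM, and neighbours in this order overlapped, *Fn1* and *Tgfbr1* included. *Smad7* (1.94 ± 0.193 RPKM) and *Tgfb1* (1.28 ± 0.167 RPKM) were lowest and did not overlap. The leading ligand transcript in muscle was therefore *Tgfb3*, and *Tgfb1*, the leading one in kidney, was the least abundant of the 8. The tables were scaled separately, so levels set across tissues are a description.

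**Figure D1:**
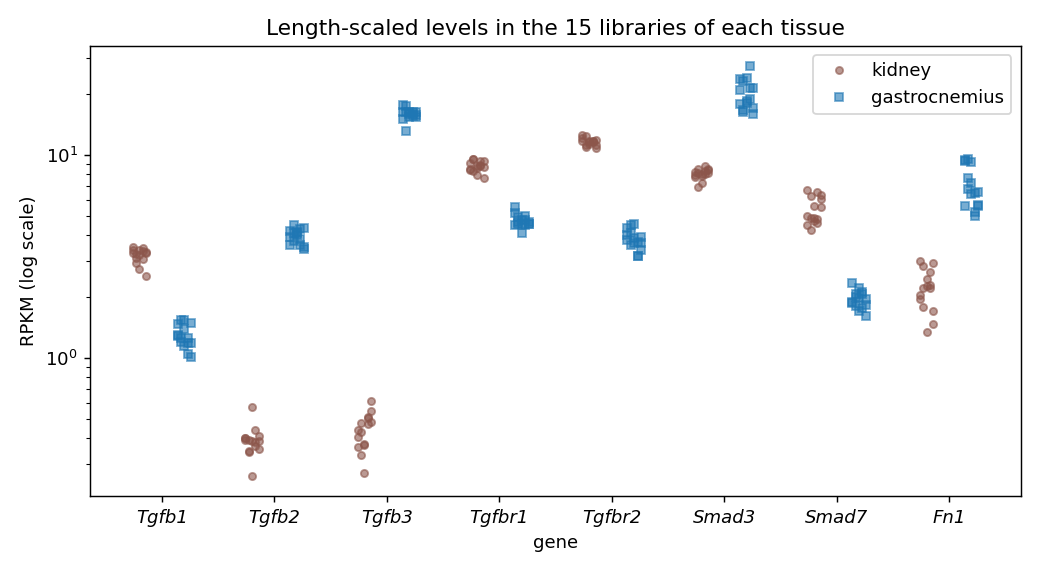
RPKM on a log scale of each member (horizontal axis) in the 15 kidney libraries (circles) and the 15 gastrocnemius libraries (squares). Among the ligands *Tgfb1* is highest in kidney (mean 3.19 RPKM) and lowest in gastrocnemius (mean 1.28 RPKM), where *Tgfb3* is highest (mean 15.9 RPKM).

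In gastrocnemius, WD feeding lowered *Smad3* and raised *Tgfb2*, and the other 6 members did not pass the test. The 2 genes called are 25% of the members, against 8.63% of all genes tested in WD vs. CD of gastrocnemius. A gene was called when its Benjamini-Hochberg adjusted p in edgeR's quasi-likelihood test, taken over all genes, was under 0.05. Tissue RNA was measured in bulk, so fewer cells of a type and less RNA per cell cannot be told apart in any of these results.

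*Smad3* (chr9:63646767-63757994, minus strand, GRCm38) encodes a receptor-activated SMAD of the pathway. Its levels in CD muscle were 131, 127.5, 132.4, 150.9 and 118.4 CPM. In WD muscle they were 98.37, 90.25, 102.3, 104.5 and 88.14 CPM, and in WD + CHP muscle 115.8, 91.93, 99.02, 118.7 and 94.11 CPM. Every WD library lay below every CD library, and 4 of 5 WD + CHP libraries did so as well.

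The mean of *Smad3* fell from 132.1 ± 11.9 CPM in CD to 96.7 ± 7.24 CPM in WD (SD, n = 5), a log2 fold change of -0.45 (SE 0.0809, adjusted p = 0.0024 in edgeR), and the exact permutation test gave p = 0.00794, the smallest that 5 against 5 libraries allow. Groups that did not overlap made up 7.84% of all genes in this comparison. The fall was called in each of the 10 fits that left out 1 CD or WD library, CD replicate 1 and WD replicate 3 with their hepatocyte markers included, with log2 fold changes from -0.49 to -0.39. WD + CHP muscle, at 103.9 ± 12.5 CPM, was also below CD (log2 fold change -0.35, SE 0.0808, adjusted p = 0.0137 in edgeR), and it was the 1 member of 8 called there, where 9.4% of all genes were. Both comparisons share the CD libraries. Between WD + CHP and WD the log2 difference was 0.10 (95% CI -0.07 to 0.27, adjusted p = 0.643 in edgeR).

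*Tgfb2* (chr1:186622792-186705989, minus strand) encodes a TGF-β ligand known for its part in embryonic development and in the adult eye and heart. Its levels in muscle were 20.9, 21.78, 23.74, 20.88 and 19.78 CPM in CD. They were 24.33, 26.05, 24.03, 25 and 25.13 CPM in WD, and 22.83, 23.85, 23.36, 22.17 and 20.21 CPM in WD + CHP. The 5 WD libraries stood above all libraries of both other groups, by a narrow margin over the highest of each.

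The rise of *Tgfb2* from 21.4 ± 1.48 CPM in CD to 24.9 ± 0.786 CPM in WD (SD, n = 5) corresponded to a log2 fold change of 0.22 (SE 0.0546, adjusted p = 0.0197 in edgeR). This call was lost in 2 of the 10 fits that left out a library, with adjusted p = 0.0576 without CD replicate 5 and 0.0541 without WD replicate 2 (edgeR). It held without CD replicate 1 (adjusted p = 0.0448) and without WD replicate 3 (0.0292 in edgeR), the libraries with the most hepatocyte marker RNA. Against WD, *Tgfb2* in WD + CHP muscle was at 22.5 ± 1.42 CPM, a log2 difference of -0.15 (95% CI -0.26 to -0.03). The unadjusted p was 0.0152 and the adjusted p 0.27 in edgeR. The groups did not overlap (exact permutation p = 0.00794, the smallest possible), as was so for 2.83% of all genes in WD + CHP vs. WD of gastrocnemius.

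Adipocyte markers also differed between CD and WD muscle. Their mean had within-group correlations of -0.484 with *Smad3* and 0.23 with *Tgfb2* over the 15 libraries. Of 10 adipocyte markers, 5 were higher and 1 was lower in WD than in CD, that is 60% against 8.63% of all genes, and their summed level was 140.4 to 218 CPM in CD, 208 to 252.5 CPM in WD and 130.8 to 200 CPM in WD + CHP. None of the markers was at 0. In WD + CHP vs. CD, where *Smad3* was still called lower, the median log2 fold change of these markers was 0.004. There, 2 of them were called higher and 1 lower, that is 30% against 9.4% of all genes. With the adipocyte marker score as a covariate, the WD vs. CD log2 fold change was -0.20 for *Smad3* (adjusted p = 0.69 in edgeR) and 0.14 for *Tgfb2* (adjusted p = 0.694), and the number of genes called over the whole table fell from 1330 to 1. Summed fast muscle fibre markers were at 222700 to 264300 CPM in CD and 198900 to 230800 CPM in WD, and 1 of the 12 was called lower. In all, 10 of the 12 were below 0 (median -0.15) and 7 were at an unadjusted p under 0.05 in edgeR. Of 12 macrophage markers, 11 had a log2 fold change above 0 in WD vs. CD (median 0.26), with 0 called in edgeR and 4 at an unadjusted p under 0.05. All 4 erythroid markers tested were above 0 as well (median 1.60), with 0 called and 3 at an unadjusted p under 0.05. Every gene called also has an unadjusted p under 0.05, so at least 8.63% of all genes were at that level. The adipocyte score itself differed between the diets, so that fit cannot tell diet and score apart. The part of these cell types in the changes was not tested.

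*Tgfb1*, *Tgfb3*, *Tgfbr1*, *Tgfbr2*, *Smad7* and *Fn1* did not pass the test in WD vs. CD of gastrocnemius. *Tgfb3*, the leading ligand transcript of muscle, was at 52.7 ± 1.61 CPM in CD and 55.7 ± 3.31 CPM in WD (SD, n = 5), and the 95% CI of its log2 difference was -0.05 to 0.21. The intervals were -0.09 to 0.38 for *Tgfb1*, -0.04 to 0.22 for *Tgfbr1*, -0.12 to 0.27 for *Tgfbr2* and -0.13 to 0.25 for *Smad7*. *Fn1* had the widest one, -0.41 to 0.31, with levels of 109.9, 111.8, 84.65, 75.78 and 65.88 CPM in CD, of 108.5, 89.8, 108.2, 61.33 and 65.29 CPM in WD, and of 65.37, 78.87, 74.46, 58.26 and 76.34 CPM in WD + CHP. High and low *Fn1* libraries occurred in both water groups, whereas the WD + CHP libraries all lay below 80 CPM.

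**Figure D2:**
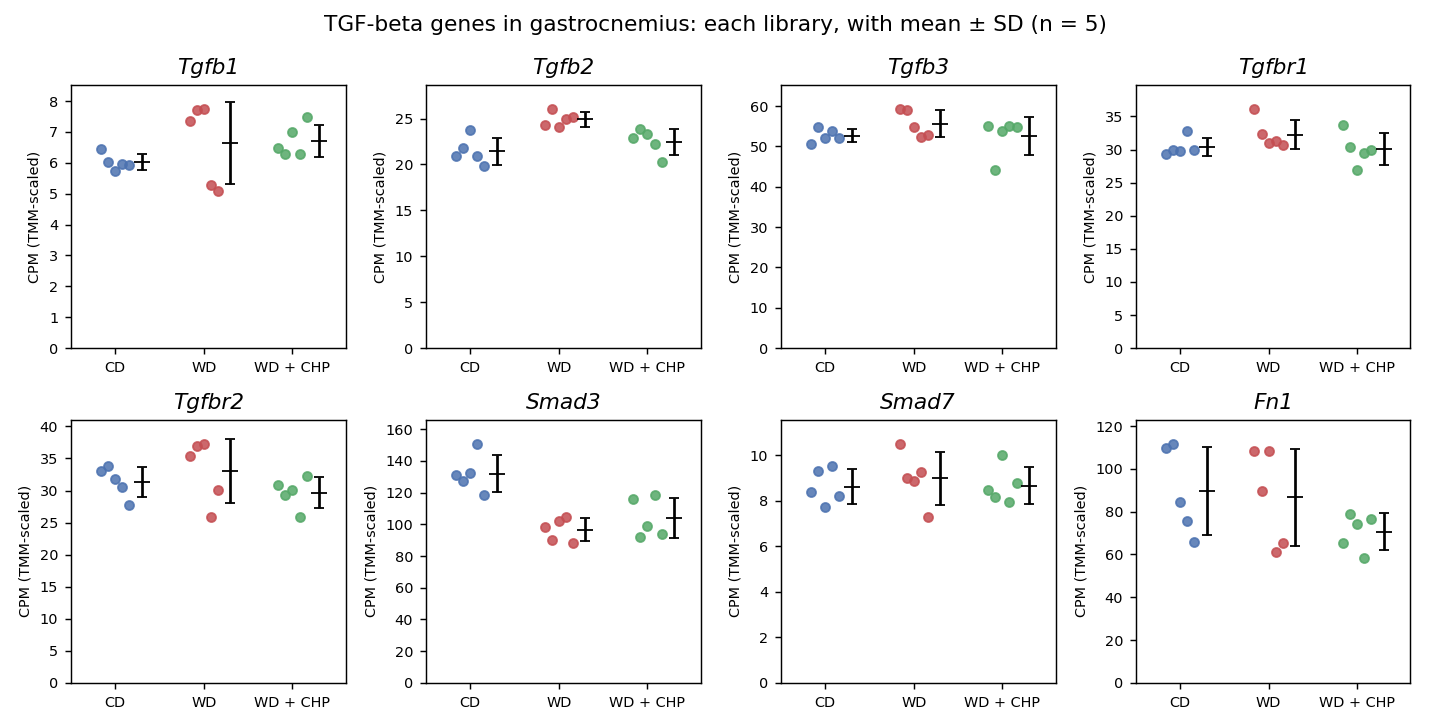
CPM (TMM-scaled) of each member in gastrocnemius, with 1 point per library in CD, WD and WD + CHP and the mean ± SD (n = 5) beside the points. The 5 WD libraries of *Smad3* (88.14 to 104.5 CPM) lie below the 5 CD libraries (118.4 to 150.9 CPM), and the WD libraries of *Tgfb2* (24.03 to 26.05 CPM) lie above those of both other groups.

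In kidney, WD feeding raised *Fn1*, and the ligands, receptors and SMADs did not pass the test. This single call is 12.5% of the members, against 9.65% of all genes tested in WD vs. CD of kidney, so the share called among the members was near that of the whole table.

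*Fn1* (chr1:71585520-71653200, minus strand) encodes fibronectin, a glycoprotein of the interstitial matrix that is also secreted into plasma by hepatocytes. Its levels in kidney were 22.83, 20.8, 15.64, 26.78 and 17.02 CPM in CD. They were 34.85, 33, 26.32, 25.8 and 34.19 CPM in WD, and 23.92, 25.68, 28.38, 30.78 and 19.89 CPM in WD + CHP. Of the 5 CD libraries, 4 lay below all WD libraries, and CD replicate 4 overlapped with the 2 lowest of them, while the WD + CHP libraries spread over both ranges.

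Mean *Fn1* rose from 20.6 ± 4.49 CPM in CD to 30.8 ± 4.41 CPM in WD (SD, n = 5), a fitted rise of 49.6%, with a log2 fold change of 0.58 (SE 0.141, 95% CI 0.28 to 0.88, adjusted p = 0.0159 in edgeR). The exact permutation test gave p = 0.0238. The call held in each of the 10 fits without 1 CD or WD library, and without WD replicate 5, the library with the high hepatocyte markers, the log2 fold change was 0.55 (adjusted p = 0.0331 in edgeR). *Fn1* in WD + CHP was at 25.7 ± 4.18 CPM, between the other groups. It was not separated from WD (log2 difference -0.26, 95% CI -0.56 to 0.03, adjusted p = 0.507) or from CD (0.32, 95% CI 0.02 to 0.62, adjusted p = 0.153 in edgeR).

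Fibroblast markers and smooth muscle and pericyte markers lay on the same side as *Fn1* in kidney. All 12 fibroblast markers had a log2 fold change above 0 in WD vs. CD, 2 of them passed the test (16.7%, against 9.65% of all genes), and none was at 0. Their summed level was 140 to 190.8 CPM in CD, 177.7 to 210.1 CPM in WD and 138.2 to 187.5 CPM in WD + CHP. Within groups, *Fn1* and the mean of the fibroblast markers had a correlation of 0.639 over the 15 kidney libraries and of 0.89 over the 15 gastrocnemius libraries, on values that share the library and its depth. In gastrocnemius the summed markers spread over 696.7 to 1212 CPM in CD, 709.3 to 1207 CPM in WD and 657.7 to 927.6 CPM in WD + CHP, and 0 of the 12 passed in WD vs. CD (3 had an unadjusted p under 0.05). At least 8.63% of all genes were at that level there, since each gene called is.

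All 8 smooth muscle and pericyte markers of kidney were also above 0 in WD vs. CD, and 3 passed the test (37.5%, against 9.65% of all genes), namely *Acta2* (0.39), *Des* (0.36), which encodes desmin, and *Notch3* (0.28), a receptor of mural cells. Their summed level was 134.1 to 167.2 CPM in CD, 154.4 to 199.1 CPM in WD and 140.1 to 175.9 CPM in WD + CHP, and none was at 0. Their mean had a within-group correlation of 0.507 with *Fn1* in kidney and of 0.155 in gastrocnemius.

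Markers of other cells were followed in WD vs. CD kidney as well. All 9 lymphocyte markers tested were above 0 (median 0.78), of which 1 was called and 6 were at an unadjusted p under 0.05. Of 11 hepatocyte markers, 9 were above 0 (median 0.85), with 2 called higher and 1 lower. Of 12 macrophage markers, 8 were above 0 (median 0.18), with 0 called in edgeR and 5 at an unadjusted p under 0.05. Such p-values were common over all genes, as *Tgfbr2*, at an unadjusted p of 0.0527 in edgeR, ranked only 4362 of 17120 by p. Proximal tubule markers had 3 of 15 called higher and 3 lower, and their summed level was 42580 to 47010 CPM in CD and 38730 to 42700 CPM in WD. The within-group correlation with *Fn1* was 0.48 for the macrophage markers, 0.439 for the hepatocyte markers and -0.175 for the lymphocyte markers. Adipocyte markers lay on the other side, with 6 of 7 below 0 (median -0.37) and 2 called lower, *Cfd* (-2.47) and *Lipe* (-0.37), that is 28.6% against 9.65% of all genes. The 5 erythroid markers were above 0 (median 0.32), with 0 called or at an unadjusted p under 0.05 in edgeR. The *Fn1* call held with the adipocyte marker score as a covariate. The part of the other cell types in the *Fn1* values was not tested.

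**Figure D3:**
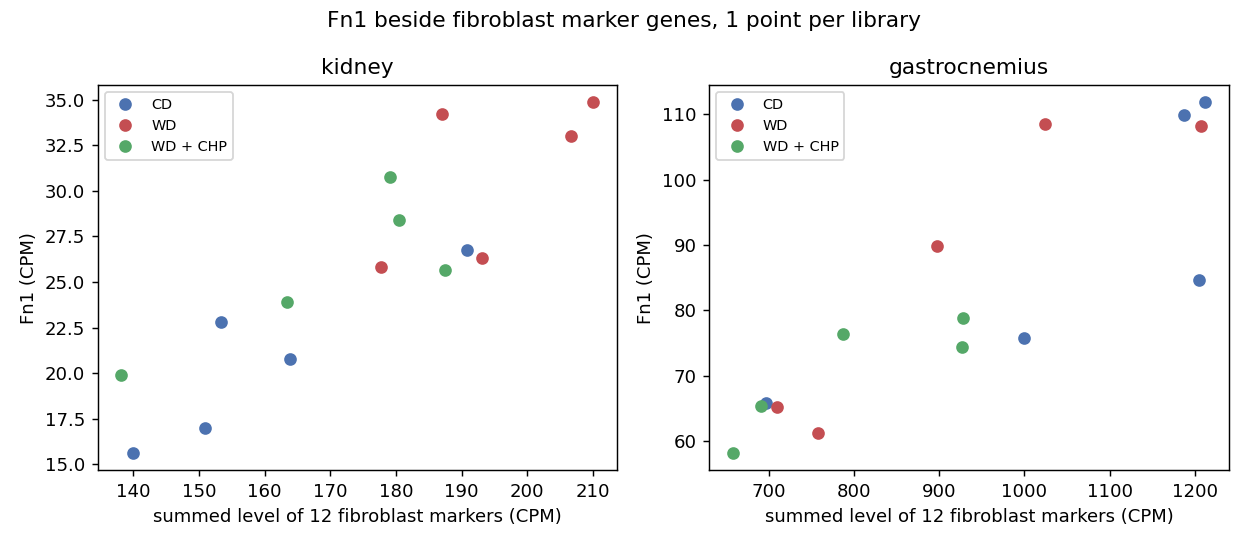
*Fn1* level (CPM, vertical axis) against the summed level of 12 fibroblast markers (CPM, horizontal axis), 1 point per library, for kidney and gastrocnemius. Libraries with more marker RNA tended to have more *Fn1* in both tissues. The within-group correlations of 0.639 in kidney and 0.89 in gastrocnemius were taken on log2 CPM with the mean of the markers, not on the plotted values.

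The kidney ligands were measured at different depths. *Tgfb1*, whose product is the TGF-β ligand most often tied to fibrosis, had 472 to 672 counts per kidney library, *Tgfb2* had 58 to 122 and *Tgfb3* had 33 to 80. *Tgfb1* was at 15.7 ± 1.16 CPM in CD, 16.9 ± 0.750 CPM in WD and 15.7 ± 1.94 CPM in WD + CHP (SD, n = 5), and the 95% CI of the WD vs. CD log2 difference was -0.05 to 0.26. The intervals of *Tgfb2* (-0.03 to 0.56) and *Tgfb3* (-0.15 to 0.62) were wider, and that of *Tgfb3* held both no change and a rise as large as that of *Fn1*.

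The receptors varied little within groups, with coefficients of variation of 3.09% to 5.92% in kidney. *Tgfbr2* was at 98.2 ± 3.22 CPM in CD and 93.1 ± 2.87 CPM in WD kidney, with a log2 difference of -0.08 (95% CI -0.15 to 0.001, adjusted p = 0.207 in edgeR). *Tgfbr1* was at 55.38, 54.57, 51.95, 58.33 and 50.02 CPM in CD, 55.11, 62.18, 56.43, 57.66 and 56.62 CPM in WD, and 59.28, 62.25, 57.17, 60.84 and 61.11 CPM in WD + CHP. Of the WD + CHP libraries of *Tgfbr1*, 4 lay above all CD libraries.

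*Tgfbr1* was the 1 member of 8 called in WD + CHP vs. CD of kidney, where 12.1% of all genes were called, and its log2 fold change was 0.15 (SE 0.0452, adjusted p = 0.0359 in edgeR). The adjusted p rose above 0.05 without CD replicate 3 (0.0616) or 5 (0.079) and without WD + CHP replicate 2 (0.069), 4 (0.0722) or 5 (0.0596), and also with a correction for exon length and GC content (0.0657) or with total-count scaling (0.157). *Tgfbr1* in WD vs. CD differed by 0.09 (95% CI -0.004 to 0.19, adjusted p = 0.22 in edgeR).

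The SMADs of kidney did not pass the test in WD vs. CD. *Smad3* was at 45.5 ± 2.15 CPM in CD, 45.2 ± 1.79 CPM in WD and 43.0 ± 3.43 CPM in WD + CHP (SD, n = 5), with a 95% CI of -0.12 to 0.10 for the WD vs. CD log2 difference. The inhibitor *Smad7* was at 20.35, 19.27, 22.12, 29.54 and 28.65 CPM in CD, 30.39, 28.31, 25.16, 21.76 and 27.21 CPM in WD, and 22.62, 21.98, 21.42, 20.85 and 25.03 CPM in WD + CHP. The CD libraries of *Smad7* fell into 3 low and 2 high ones, and 4 of 5 WD libraries lay above all WD + CHP libraries.

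**Figure D4:**
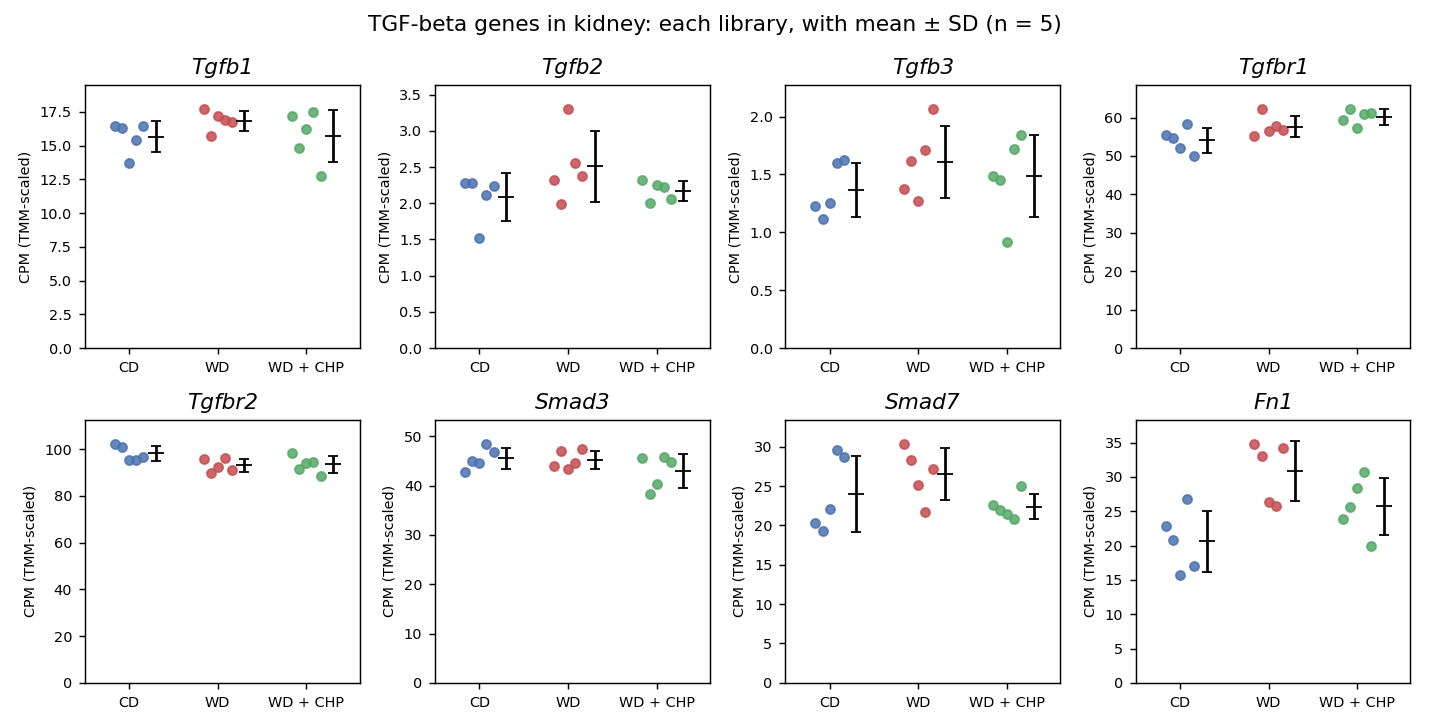
CPM (TMM-scaled) of each member in kidney, with 1 point per library in CD, WD and WD + CHP and the mean ± SD (n = 5) beside the points. *Fn1* is at 25.8 to 34.85 CPM in WD and at 15.64 to 26.78 CPM in CD, and the receptor and *Smad3* libraries of the 3 groups lie close together.

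Between WD + CHP and WD, 0 of 8 members passed edgeR's test in kidney and 0 of 8 in gastrocnemius, and DESeq2 and limma-voom also called 0 in each. Over all genes, kidney had 0.105% called and gastrocnemius 0.409%. At an unadjusted p under 0.05 there was 1 member in each tissue, that is 12.5% of the members, against 11.4% of all genes in kidney and 12.5% in gastrocnemius. These were *Smad7* in kidney, at 26.6 ± 3.28 CPM in WD and 22.4 ± 1.62 CPM in WD + CHP (SD, n = 5; log2 difference -0.25, 95% CI -0.49 to -0.01, unadjusted p = 0.0433, adjusted p = 0.422 in edgeR), and *Tgfb2* in gastrocnemius, given above.

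The log2 differences between WD + CHP and WD were below 0 for 6 of 8 members in each tissue, against 52.4% of all genes in kidney and 54.1% in gastrocnemius. This comparison shares its WD libraries with WD vs. CD, so spread in those libraries alone pushes these comparisons to opposite signs. The median over the members was -0.11 in kidney and -0.09 in gastrocnemius, beside -0.01 over all genes in each. The exceptions were *Tgfbr1* and *Tgfbr2* in kidney and *Tgfb1* and *Smad3* in gastrocnemius. With the total count in place of TMM, the kidney *Tgfbr2* value (-0.03) and the gastrocnemius *Tgfb1* value (-0.03) also lay below 0. The 95% CI of the WD + CHP vs. WD difference was narrowest for *Tgfbr2* in kidney, -0.07 to 0.08, and widest for *Tgfb3* in kidney, -0.50 to 0.27, and for *Fn1* in gastrocnemius, -0.66 to 0.07.

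**Figure D5:**
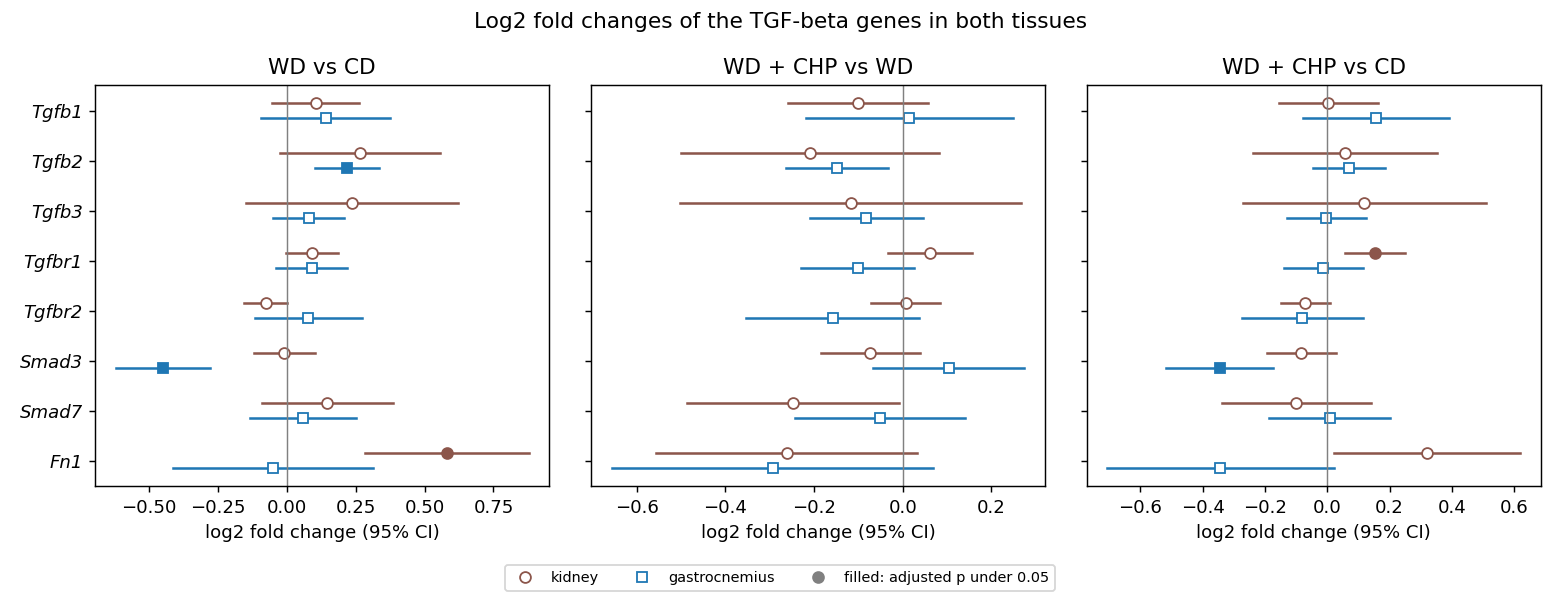
Log2 fold changes of the members (points) with 95% CIs (lines) in WD vs. CD, WD + CHP vs. WD and WD + CHP vs. CD, for kidney (circles) and gastrocnemius (squares), where filled symbols have an adjusted p under 0.05. *Fn1* in kidney (0.58), *Tgfb2* (0.22) and *Smad3* (-0.45) in gastrocnemius are filled in WD vs. CD, and no symbol is filled in WD + CHP vs. WD.

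The effect of WD feeding was also compared between the tissues, in 1 model over all 30 libraries and 18708 genes, which took every library as a separate animal although mice were probably shared between the tissues. *Smad3* was the 1 member whose WD vs. CD effect differed, by 0.44 on the log2 scale (kidney minus gastrocnemius, SE 0.106, 95% CI 0.22 to 0.66, adjusted p = 0.0142 in edgeR), and 4.13% of all genes were called in this test. *Fn1* showed a difference of 0.63 (95% CI 0.14 to 1.13, unadjusted p = 0.0133), which did not pass over all genes (adjusted p = 0.141). With the adipocyte marker score of each tissue as covariates, the *Smad3* difference was 0.20 (adjusted p = 0.683 in edgeR) and no longer passed, and the genes called over the whole table went from 772 to 23. The score of muscle itself differed between the diets, so this fit cannot tell diet and score apart. Over 30 alternative runs the *Fn1* difference ranged from 0.54 to 1.06 and was never called. Its WD vs. CD value in gastrocnemius ranged from -0.45 to 0.05 over the alternatives. The rise of *Fn1* in kidney was thus not shown to differ from muscle. The WD + CHP vs. WD effect differed between tissues for 0 of 8 members in edgeR, DESeq2 and limma-voom, with 0.347% of all genes called in edgeR. No member had an unadjusted p under 0.05 there, the lowest being 0.0509 for *Tgfbr1*. The WD + CHP vs. CD effect also differed for 0 of 8 members in these 3 tools, with 5.78% of all genes called in edgeR, and 3 members had an unadjusted p under 0.05, namely *Tgfbr1*, *Smad3* and *Fn1* (0.0478, 0.0232 and 0.0107). With the replicate block *Smad3* was called in this difference, as given below.

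Other genes of the pathway were followed as lists written from general knowledge. In kidney WD vs. CD, 10 of 30 SMAD3 target and fibrosis genes were higher and 0 lower, against 4.62% of all genes that were higher, and the median log2 fold change was 0.27 beside 0.00 over all genes. Those called included *Snai2* (0.74) and *Snai1* (0.58), which encode transcription factors of mesenchymal transition, *Col1a1* (0.73), a chain of type I collagen, *Bgn* (0.45), a matrix proteoglycan, and *Acta2* (0.39), smooth muscle actin. Of the 30 genes, 4 are also fibroblast markers and 2 also smooth muscle markers in the lists used here, and the kidney markers of both cell types, all above 0, are given above beside *Fn1*. In gastrocnemius 4 of 30 were higher and 0 lower, against 4.67% of all genes that were higher, with a median of 0.24, and they included *Acta2* (0.59), *Tagln* (0.53) and *Itga5* (0.47), a chain of the fibronectin receptor. Of the 8 smooth muscle and pericyte markers of gastrocnemius, 7 were above 0, and those called were the same *Acta2* and *Tagln* (25%, against 8.63% of all genes). *Des* held most of the RNA of this list in muscle, at 3262 CPM of a summed 3582 to 3849 CPM in WD, against 11.33 CPM in WD kidney. It may therefore not mark these cells in muscle. The part of these cells in the target genes was not tested.

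Of 14 inhibitors of the pathway, 3 passed the test in WD vs. CD in each tissue, that is 21.4%, against 9.65% of all genes in kidney and 8.63% in gastrocnemius. The median log2 fold change of the 14 was 0.01 in kidney and -0.01 in gastrocnemius. In kidney 2 were higher, *Pmepa1* (0.61, adjusted p = 0.000349), which sequesters receptor-activated SMADs, and *Skil* (0.46, adjusted p = 0.0013), a SMAD co-repressor, and 1 was lower, the co-repressor *Tgif1* (-0.59, adjusted p = 0.00158 in edgeR). In gastrocnemius *Skil* was higher (0.52, adjusted p = 0.00312), whereas *Tgif1* (-0.66, adjusted p = 0.00111) and *Nedd4l*, a ubiquitin ligase (-0.20, adjusted p = 0.0125 in edgeR), were lower. The groups of each of these genes did not overlap, as was so for 8.7% of all genes in kidney and 7.84% in gastrocnemius. *Smad7*, the member of this class, did not pass in either tissue.

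Of 17 genes of ligand storage and activation, 1 was higher and 3 were lower in kidney WD vs. CD, that is 23.5%, against 9.65% of all genes, and 13 did not pass. *Plau*, the urokinase that generates plasmin, was at 668.5 CPM in CD and 368.8 CPM in WD (log2 fold change -0.86, adjusted p = 0.000673 in edgeR). *Thbs1* (-0.40), whose product activates latent TGF-β, and the integrin chain *Itgav* (-0.14) were lower, and the protease *Mmp2* (0.51) was higher. In gastrocnemius 1 of 17 passed, that is 5.88%, below the 8.63% of all genes. It was *Itgb6* (0.47), a chain of an integrin that releases the latent ligand.

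Among 10 other receptors, *Acvrl1*, an endothelial type I receptor, was higher in both kidney (0.34) and gastrocnemius (0.37) in WD vs. CD. In kidney its co-receptor *Eng* (0.25) was also higher and the activin receptor *Acvr2b* (-0.59) lower. Of the 10 other SMADs and partners tested, 0 passed in kidney, where 0 also had an unadjusted p under 0.05 in edgeR (the smallest p was that of *Smad9*, -0.31, adjusted p = 0.272), and the co-activator *Crebbp* (-0.21) was lower in gastrocnemius. Among BMP, activin and GDF ligands, *Inhbb* (-1.20), an activin subunit, was lower and *Gdf10* (0.55) and *Bmp2* (0.54) were higher in kidney, and *Bmp4* (-0.29) was lower in gastrocnemius. The share called in kidney was 30% of the 10 receptors and 33.3% of the 9 ligands tested, against 9.65% of all genes. In gastrocnemius 1 of 10 was called in each of these 3 lists, a share of 10% that was near the 8.63% of all genes.

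Of the 12 fibronectin receptors and partners, *Sdc4*, a fibronectin-binding syndecan, moved in opposite directions in WD vs. CD, with a log2 fold change of -0.21 in kidney (adjusted p = 0.0171) and 0.44 in gastrocnemius (adjusted p = 0.028 in edgeR). The difference between tissues was not tested for this gene. *Itgav* (-0.14) was the other gene called in kidney and *Itga5* (0.47) the other in gastrocnemius, so that 16.7% of the list was called in each tissue, against 9.65% and 8.63% of all genes.

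In WD + CHP vs. WD, 1 gene of these pathway lists passed the test, *Lox* in gastrocnemius (-0.88, adjusted p = 0.025 in edgeR), the collagen cross-linking oxidase, with no overlap between groups. It is 3.33% of the 30 target genes, against 0.409% of all genes called in gastrocnemius. *Lox* was at 11.24 CPM in CD, 11.35 CPM in WD and 6.18 CPM in WD + CHP, so the level in WD was close to that in CD, and it was also called lower in WD + CHP than in CD (-0.86, adjusted p = 0.00346 in edgeR). Of the 30 target genes, 27 had a log2 fold change below 0 in kidney (median -0.15) and 26 in gastrocnemius (median -0.17), against 52.4% and 54.1% of all genes. The WD libraries are shared with WD vs. CD, so opposite signs in target and marker genes can arise from those libraries alone. In each tissue 5 of the 30 (16.7%) had an unadjusted p under 0.05, against 11.4% of all genes in kidney and 12.5% in gastrocnemius. The gene of smallest p among the targets in kidney was *Snai1*, at 2.7 CPM in WD and 1.90 CPM in WD + CHP (adjusted p = 0.177). Fibroblast markers lay on the same side, with 12 of 12 below 0 in kidney and 11 of 12 in gastrocnemius, of which 0 passed in edgeR and 2 in each tissue had an unadjusted p under 0.05. In gastrocnemius 4 of 10 adipocyte markers were called lower in WD + CHP than in WD, namely *Lep* (-1.89), *Cidec* (-1.31), *Adipoq* (-1.15) and *Plin1* (-0.98), with a median of -0.58 over the 10. All 12 macrophage markers were below 0 there (median -0.28), with 0 called and 3 at an unadjusted p under 0.05. The 5 hepatocyte markers tested in gastrocnemius were below 0 (median -3.76), as were the 4 erythroid markers (median -1.37), each at an unadjusted p under 0.05 and with 0 called in edgeR. Their summed levels were 0.785 to 76.57 CPM (hepatocyte) and 3.83 to 49.43 CPM (erythroid) in WD, and 0.572 to 3.08 CPM and 4.31 to 20.26 CPM in WD + CHP, the highest hepatocyte value being that of WD replicate 3. In kidney the 8 smooth muscle and pericyte markers (median -0.17), 11 of 12 endothelial markers (median -0.10) and 8 of 9 lymphocyte markers (median -0.49) were below 0, with 0 called in each list and 1, 3 and 0 at an unadjusted p under 0.05. Kidney hepatocyte markers had 8 of 11 below 0 (median -0.55) and 4 at an unadjusted p under 0.05, and proximal tubule markers had 10 of 15 above 0 (median 0.08) and 5 at that level, with 0 called in edgeR in both lists. The part of these cell types in the *Lox* and target gene values was not tested.

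The genes of smallest p in the other pathway lists did not pass in WD + CHP vs. WD. In kidney they were *Itgav* (0.19, adjusted p = 0.0836), which led both the ligand activation and the fibronectin lists, *Eng* (-0.31, 0.126), the SMAD4 ubiquitin ligase *Trim33* (0.13, 0.225), the co-repressor *Ski* (-0.12, 0.312) and *Bmp2* (-0.35, 0.342, all in edgeR). In gastrocnemius they were *Thbs1* (-1.09, adjusted p = 0.165), the co-receptor *Tgfbr3* (-0.31, 0.109), *Smad1* (-0.15, 0.409), the proteoglycan *Dcn* (-0.27, 0.323), *Inhbb* (-0.48, 0.196) and the matrix gene *Fbln1* (-0.84, 0.113, all in edgeR).

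In WD + CHP vs. CD, which shares the CD libraries with WD vs. CD, the share of all genes called was 12.1% in kidney and 9.4% in gastrocnemius. In kidney 5 of 14 inhibitors passed, namely *Tgif1* (-0.63) and *Ski* (-0.17), which were lower, and *Pmepa1* (0.47), *Skil* (0.43) and *Strap* (0.13), which were higher. Of the kidney target genes 2 of 30 passed (6.67%), *Col1a1* (0.58) and *Timp3* (0.42), an inhibitor of matrix proteases. The receptors *Tgfbr3* (-0.42) and *Acvr1b* (-0.18) were lower, as were *Plau* (-0.83), *Thbs1* (-0.35), *Smad9* (-0.69), *Inhbb* (-0.87) and *Sdc4* (-0.22), and *Trim33* (0.14) was higher.

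In gastrocnemius WD + CHP vs. CD, 3 of 30 target genes were higher, *Acta2* (0.56), *Tagln* (0.41) and *Itga5* (0.32), and 2 were lower, *Lox*, given above, and *Tgfbi* (-0.35), a matrix protein induced by TGF-β. Of 12 fibronectin receptors and partners, *Sdc4* (0.53) and *Itga5* were higher and the matrix genes *Tnc* (-1.23) and *Fbln1* (-0.98) lower. Of 10 receptors, *Acvrl1* (0.36) and *Eng* (0.27) were higher and *Tgfbr3* (-0.45) and *Acvr2a* (-0.40) lower. The other genes called were lower, namely *Thbs1* (-1.15), the protease *Mmp14* (-0.48), *Tgif1* (-0.73), *Dcn* (-0.57), *Crebbp* (-0.25), the transcription factor *Sp1* (-0.25) and *Inhbb* (-0.65). Of 12 fibroblast markers, 7 were below 0 and 2 were called lower, the same *Fbln1* and *Dcn*. All 8 smooth muscle and pericyte markers were above 0, with the same *Acta2* and *Tagln* called, and *Des* carries the limit given above. The part of these cells was not tested.

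Genes whose log2 CPM followed the members most closely over the 15 libraries of a tissue were named as a description, among 12406 kidney and 10817 gastrocnemius genes. In kidney *Fn1* followed *Sparc* (Pearson r = 0.922), *Mrc2* (0.919) and *Col1a2* (0.914), which encode matrix proteins and a collagen-binding receptor. In gastrocnemius it followed *Pcsk6* (0.978), *Fndc1* (0.969) and *Antxr2* (0.953). *Tgfb1* in kidney followed *Pdgfb* (0.874), and *Smad7* in kidney followed *Zbed3* (0.907), *Atoh8* (0.877) and *Id1* (0.875), the last a target of BMP signalling. *Smad3* in gastrocnemius followed *Crot* (0.918), *Dop1b* (0.916) and *Leo1* (0.906), with within-group correlations of 0.75, 0.776 and 0.717.

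Among the members themselves, *Tgfb1* and *Tgfbr2* had within-group correlations of 0.792 in kidney and 0.82 in gastrocnemius over 15 libraries each. In gastrocnemius *Tgfbr2* and *Fn1* had a within-group correlation of 0.859, against 0.207 in kidney, and *Tgfb1* and *Fn1* one of 0.738, against 0.475. *Smad3* and *Fn1* did not vary together in either tissue, with within-group values of 0.114 in kidney and -0.172 in gastrocnemius. The libraries of these pairs share their depth and their cell make-up.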

How the data were processed

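Polyadenylated RNA of kidney and gastrocnemius was sequenced on the BGISEQ-500 platform at the Beijing Genomics Institute, and reads were cleaned with SOAPnuke. The submitters' processing notes name STAR 2.7.3a and GRCm38. The authors deposited raw counts of reads per gene, with no normalisation. The counter, annotation and strand setting are not given in the sources used here, so genes that overlap another gene are uncertain. The labels give frozen liver throughout and, for gastrocnemius, a NucleoSpin kit, and the paper gives kidney or gastrocnemius and a Direct-zol kit.

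Coordinates and exon lengths came from GENCODE M21 (54809 and 55227 identifiers matched) and promoters from RefSeq. In R 4.3.3, edgeR 4.0.16 was fitted to the 3 groups of each tissue (filterByExpr, minimum count 10, TMM, two-sided quasi-likelihood F test). P-values were adjusted by Benjamini-Hochberg over the whole filtered table, and 0.05 was the threshold. The tissue difference was fitted over 6 groups. CPM used TMM-scaled library sizes, log2 CPM a prior count of 2, and standard errors came from the F statistic. Exact permutation tests used all 252 splits of 10 libraries. Of the other lists, genes with an adjusted p under 0.05 were named, up to 5 per list and comparison by fold change, or the gene of smallest p, with 1 gene not reported here. Each library's total is the depth behind its values, and libraries of a group differed by more than counting error (8.82 to 74.6 chi-square units per gene).

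The members and lists were chosen with earlier results of these data known. No column was left without a sample (0). The alternatives were DESeq2 1.42.0, limma-voom (limma 3.58.1), RLE or total-count scaling, other filters, an adjusted p under 0.1, a replicate block, an adipocyte covariate, the compared groups alone, each library left out, and, added later, a length and GC correction and the adipocyte covariate in the tissue difference. On simulated counts for WD vs. CD, a log2 change of 0.25 was called in 18.2% of genes in kidney (17120 genes) and 5.97% in gastrocnemius (15419 genes), and a change of 0.5 in 56.1% and 59.7%. Only 67 genes, drawn from all levels, were changed by each of these sizes. In the data 1652 and 1330 genes were called, so these shares need not hold for the members. Figures were drawn with Python 3.11.15 and matplotlib 3.10.9.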

Additional observations from a re-analysis of the deposited data

Results flagged for a closer look

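Among 48 sets of 5 libraries (8 members, 3 groups, 2 tissues), 3 held a library far from the other 4, where chance alone gives about 5% of such sets. In CD kidney, *Tgfb2* was at 1.516 CPM in replicate 3, with the next library at 2.115 CPM and the highest at 2.282 CPM. In WD + CHP gastrocnemius, *Tgfb3* was at 44.1 CPM in replicate 2, below the next library at 53.93 CPM. In CD gastrocnemius, *Tgfbr1* was at 32.73 CPM in replicate 4, above the next library at 29.89 CPM. None of these members was called in a comparison of that tissue that used the set.

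*Smad3* differed between tissues in its response to WD feeding, with a kidney minus gastrocnemius difference of 0.44 in the log2 fold change (adjusted p = 0.0142 in edgeR). It was at 45.5 and 45.2 CPM in CD and WD kidney and at 132.1 and 96.7 CPM in CD and WD gastrocnemius. The call held in each of the 20 fits that left out 1 library and was lost with the adipocyte marker score of each tissue as covariates (0.20, adjusted p = 0.683 in edgeR).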

How the results depend on the processing

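The calls of *Fn1* in kidney WD vs. CD and *Smad3* in gastrocnemius WD + CHP vs. CD held under each alternative run. In the WD vs. CD tissue difference the count of members called went from 1 (*Smad3*) to 0 with the adipocyte covariate of each tissue, an alternative chosen after seeing the data, where *Smad3* was at 0.2036, and stayed at 1 under the other alternatives. In WD + CHP vs. CD of kidney the count of members called went from 1 (*Tgfbr1*) to 0 without a filter on low counts, with the length and GC correction (with or without the block) and with only the 2 groups compared, and ranged from 0 to 2 when a library was left out, *Fn1* being added without CD replicate 4. With total counts the count stayed at 1, but the member called was *Tgfbr2* in place of *Tgfbr1*. In WD vs. CD of gastrocnemius it went from 2 to 0 with the adipocyte covariate and ranged from 1 to 2 when a library was left out. The cause was not tested. Genes called over the whole table in WD + CHP vs. WD numbered 18 in kidney and 63 in gastrocnemius in edgeR, 194 and 249 in DESeq2, and none of them was among the members. Scaling by total count moved the higher and lower calls over all genes in gastrocnemius WD vs. CD from 720 and 610 to 1506 and 346.

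The labels do not say what a replicate number marks, and not every pair of same-numbered libraries varied together, so the numbers were not taken to pair the libraries. Same-number correlations ran from -0.355 to 0.305 in kidney, where 8 of 15 were over 0.1 and 7 of 15 libraries were closest to their own number, a hint of pairing from the data alone. They ran from -0.305 to 0.298 in gastrocnemius, with 4 of 15 over 0.1 and 1 of 15 libraries closest to its own number. The replicate block left every count of members within a tissue as it was. It raised the WD + CHP vs. CD tissue difference from 0 to 1 member, *Smad3* (0.26, adjusted p = 0.0426 in edgeR), as did the length and GC correction with the block (1 member, *Smad3*, 0.27). The block moved the genes called in kidney WD + CHP vs. WD from 18 to 70.

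Only values that were not called changed sign. With total counts these were *Tgfbr2* in kidney WD + CHP vs. WD (-0.02662), *Fn1* in gastrocnemius WD vs. CD (0.01067) and *Tgfb1* in gastrocnemius WD + CHP vs. WD (-0.02639). With the adipocyte covariate they were *Smad3* in kidney WD vs. CD (0.007643) and, in gastrocnemius WD + CHP vs. WD, *Tgfb1* (-0.0747), *Smad3* (-0.1098) and *Fn1* (0.06101). Leaving out a library gave sign changes in *Smad3* in kidney WD vs. CD (-0.02775 to 0.01877), *Tgfb3* (-0.2047 to 0.01732) and *Tgfbr2* (-0.009476 to 0.02627) in kidney WD + CHP vs. WD, *Smad7* (-0.00405 to 0.1248) and *Fn1* (-0.1435 to 0.05235) in gastrocnemius WD vs. CD, and *Tgfb1* (-0.06588 to 0.07699) and *Smad7* (-0.1172 to 0.01135) in gastrocnemius WD + CHP vs. WD. Kidney *Tgfb2* and *Tgfb3* rested on the fewest counts.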
